A study of Homo sapiens with 18 samples.

Results

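The 7 genes described here encode the RNA-binding proteins LIN28A and LIN28B, the architectural chromatin proteins HMGA1 and HMGA2, and the 3 insulin-like growth factor 2 mRNA-binding proteins IGF2BP1, IGF2BP2 and IGF2BP3. They were taken by symbol from a table of 40266 genes, and each symbol had 1 row. The study compared cell variants of the human pancreatic ductal adenocarcinoma (PDAC) lines Panc1 and Panc89 by RNA sequencing. Panc1 comes from a primary tumor and served as the mesenchymal-like model, whereas Panc89 comes from a lymph node metastasis and served as the epithelial model. Each line was measured as parental cells and as Holoclone and Paraclone cells, with 3 replicates in each of the 6 groups, 18 libraries in all. Holoclones are compact colonies associated with cancer stem cells and Paraclones are scattered colonies associated with cells lacking stem cell traits. The labels list no genetic change and no drug treatment for any group. The Holo- and Paraclone cells were grown out from single cells and the replicates were RNA isolations from separate passages, so that differences between variants cannot be told apart from differences between single clones.

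As background, LIN28 proteins bind precursors of the let-7 microRNA family and block their maturation, partly by recruiting terminal uridylyltransferases that mark the precursor for decay. Mature let-7 in turn binds the 3′ untranslated regions (3′ UTRs) of many growth-related transcripts and lowers their stability and translation, and the mRNAs of LIN28, HMGA2 and the IGF2BP proteins are textbook examples. HMGA proteins bend AT-rich DNA and open chromatin, and IGF2BP proteins bind mRNAs, many of them carrying N6-methyladenosine (m6A), and shield them from decay. All these genes are high in embryonic tissue, mostly low in adult tissue and often high again in cancer, hence the name oncofetal.

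The let-7 sequences are shown because the 7 genes share matches to their seed, the bases from position 2 to 8 that guide target pairing. The 9 distinct mature sequences from 12 loci in RefSeq all carry 1 seed. In the following 3, the seed is in capitals, 5′ to 3′.
hsa-let-7a-5p: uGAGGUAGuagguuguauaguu
hsa-let-7i-5p: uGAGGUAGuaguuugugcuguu
hsa-miR-98-5p: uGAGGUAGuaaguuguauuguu

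The complementary sequence CTACCTC was searched on the sense strand only of 1 annotated 3′ UTR per gene (GENCODE 44, MANE Select transcripts), and 9.85% of 18780 such 3′ UTRs held at least 1 match. All 7 genes held a match, 16 in all. *LIN28B*, *HMGA2* and *IGF2BP1* had 4 each, and *LIN28A*, *HMGA1*, *IGF2BP2* and *IGF2BP3* had 1 each. Long 3′ UTRs hold such matches more often. Among 3′ UTRs of similar length, the share with a match was 8.71% for *HMGA1*, 12.1% for *IGF2BP3*, 13.1% for *IGF2BP2*, 14.8% for *HMGA2*, 16.8% for *LIN28A*, 23.5% for *LIN28B* and 32.4% for *IGF2BP1*. A match is a description of letters and not evidence of regulation in these cells. The first match of each gene is given with its GRCh38 position, on the transcribed strand with the match in capitals.
LIN28A, chr1:26427348-26427370 (+): gcacagcctattgaaCTACCTCa
LIN28B, chr6:105078812-105078834 (+): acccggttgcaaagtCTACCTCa
HMGA1, chr6:34245829-34245851 (+): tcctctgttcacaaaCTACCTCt
HMGA2, chr12:65963298-65963320 (+): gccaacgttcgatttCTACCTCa
IGF2BP1, chr17:49051061-49051083 (+): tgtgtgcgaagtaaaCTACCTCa
IGF2BP2, chr3:185644220-185644242 (-): aacacacagaagaagCTACCTCa
IGF2BP3, chr7:23311795-23311817 (-): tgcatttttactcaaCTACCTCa

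The values are log2(TPM + 1), where TPM is the transcript level scaled for length and library. TPM keep no read total, so the depth of the libraries and the counting error of the values are unknown. Between 12932 and 14199 genes reached 1 TPM in a library, and replicates of a group correlated at 0.954 to 0.992 across genes, which are not independent replicates. The labelled lines matched most of their markers but not all. The mesenchymal list (5 genes, led by *VIM*) summed to 2050 to 5180 TPM in Panc1 and 3.27 to 12.9 TPM in Panc89 libraries. *CDH1*, which encodes E-cadherin, lay at 0.671 to 3.51 TPM in Panc1 and 73.3 to 107 TPM in Panc89 libraries. However, the mesenchymal marker *ZEB2* was highest in Panc89 Paraclone libraries (1.74 to 2.78 TPM). *CDH2* was at 1.09 to 1.82 TPM in Panc1 Paraclone but 6.21 to 11.7 TPM in Panc89 Holoclone libraries. The epithelial marker *KRT19* in Panc1 Paraclone libraries (1090 to 1390 TPM) overlapped with parental Panc89 libraries (1160 to 1460 TPM). Differences between groups were tested with limma-trend on 16093 genes that reached 1 TPM in 3 or more libraries, and an adjusted p (Benjamini-Hochberg, over all these genes) under 0.05 counted as a call. *LIN28A* did not reach this minimum and is given as values only, and *LIN28B* reached it through the Panc1 libraries alone.

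*LIN28A* (chromosome 1, 26410817 to 26429728) was below 1 TPM in all 18 libraries. Its highest value was 0.38 on the log2(TPM + 1) scale (0.301 TPM), in parental Panc1 replicate 1. The group means ranged from 0.25 in parental Panc1 to 0.02 in Panc89 Holoclone cells, and each group overlapped with its neighbour in this order.

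*LIN28B* (chromosome 6, 104936616 to 105083332), the paralog that many tumors re-express, was measured at a low level in Panc1 and near 0 in Panc89. On the log2(TPM + 1) scale, the parental Panc1 libraries were at 2.30, 2.29 and 2.24, the Panc1 Holoclone libraries at 2.04, 1.93 and 2.27, and the Panc1 Paraclone libraries at 1.76, 1.29 and 1.28. All 9 Panc89 libraries were at or below 0.16, and Panc89 Paraclone replicate 1 was listed at 0. The lines did not overlap, nor did Panc1 Paraclone cells with the other Panc1 variants. In TPM, the means were 3.85 ± 0.106 (SD, n = 3) in parental Panc1, 3.25 ± 0.529 in the Holoclone and 1.75 ± 0.544 in the Paraclone cells of Panc1, against 0.0657 ± 0.0544 in parental Panc89 cells. A log2 fold change at this level understates the change in TPM, because 1 is added before the logarithm.

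Parental Panc89 cells were lower than parental Panc1 cells in *LIN28B* by a log2 difference of −2.19. Between the Holoclone cells of the lines the difference was −2.03, and between the Paraclone cells −1.37. These differences between the lines are given as a description, because the gene entered the test through its level in Panc1 alone. Within Panc1, *LIN28B* was higher in Holoclone than in Paraclone cells by 0.64 ± 0.14 (SE, adjusted p = 0.0019 in limma-trend) and lower in Paraclone than in parental cells by 0.84 (a log2 fold change of −0.84, adjusted p = 0.00037). Holoclone and parental Panc1 cells differed by −0.20, with a 95% interval from −0.49 to 0.10 (adjusted p = 0.442). The Panc89 variants differed by −0.05 to −0.02, all near 0 TPM. Bulk RNA cannot tell apart fewer cells with a transcript from less of it per cell.

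**Figure D1:**
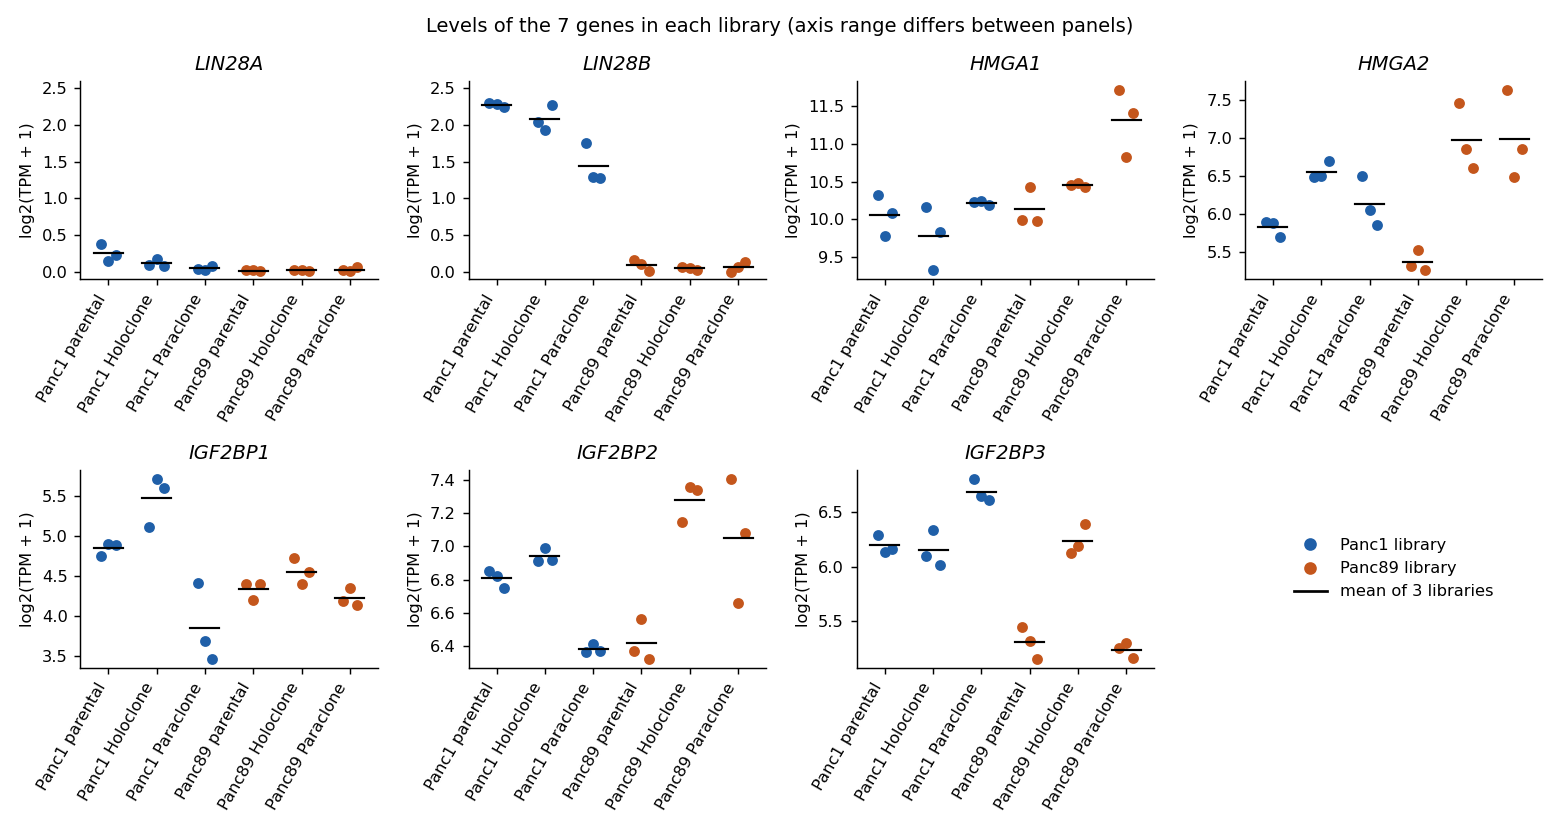
Level of each of the 7 genes as log2(TPM + 1) on the y axis in every library, by group on the x axis, with Panc1 in blue, Panc89 in orange and the mean of 3 libraries as a bar; axis ranges differ between genes except that LIN28A and LIN28B share one. LIN28B is at 1.28 to 2.30 in Panc1 and at most 0.16 in Panc89 libraries, and HMGA1 reaches 11.71 in a Panc89 Paraclone library.

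*HMGA1* (chromosome 6, 34236873 to 34246231) was the most abundant of the 7 genes, with a mean of 1390 TPM over all libraries, above 99.4% of the genes tested. The parental Panc1 libraries were at 10.32, 9.78 and 10.08, the Panc1 Holoclone libraries at 10.16, 9.33 and 9.84, and the Panc1 Paraclone libraries at 10.23, 10.25 and 10.19 on the log2(TPM + 1) scale. The parental Panc89 libraries were at 9.99, 10.43 and 9.98, the Panc89 Holoclone libraries at 10.45, 10.48 and 10.43, and the Panc89 Paraclone libraries at 11.71, 10.82 and 11.41. The Panc89 Paraclone libraries stood above all others. The 3 Panc89 Holoclone libraries were above every Panc1 library but overlapped with the parental Panc89 libraries. The 8 annotated pseudogenes could take reads from *HMGA1*, but their summed level of 2.78 to 6.93 TPM was 0.102% to 0.827% of that of *HMGA1*.

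In Panc89, *HMGA1* was lower in Holoclone than in Paraclone cells by a log2 difference of −0.86 ± 0.22 (SE, adjusted p = 0.00711), with no overlap. The call was lost in a fit of these 2 groups alone (adjusted p = 0.0615). Panc89 Paraclone cells exceeded parental Panc89 cells by 1.18 (adjusted p = 0.00142) and Panc1 Paraclone cells by 1.09 (adjusted p = 0.000559). The same comparison of Holo- with Paraclone cells in Panc1 gave −0.45, with a 95% interval from −0.92 to 0.03 (adjusted p = 0.135). This passed the threshold after upper quartile scaling of the TPM (−0.69, adjusted p = 0.0408), after median-of-ratios scaling (−0.73, adjusted p = 0.0339) and without Panc1 Holoclone replicate 1 (−0.64, adjusted p = 0.0491). The Panc89 and Panc1 changes did not differ beyond their spread (difference −0.41 ± 0.32, adjusted p = 0.344). Panc89 Holoclone cells were above Panc1 Holoclone cells by 0.68 (adjusted p = 0.0146), which was not called without Panc1 Holoclone replicate 2 (0.45, adjusted p = 0.09). The parental cells differed by 0.07, with a 95% interval from −0.40 to 0.55.

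*HMGA2* (chromosome 12, 65824460 to 65966291), a classical let-7 target, was higher in both Panc89 clones than in the parental Panc89 cells. The parental Panc89 libraries were at 5.31, 5.53 and 5.26, the Panc89 Holoclone libraries at 7.46, 6.85 and 6.60, and the Panc89 Paraclone libraries at 7.63, 6.49 and 6.85. Every clone library lay above every parental library, whereas the clones overlapped with each other. The log2 fold change over parental cells was 1.61 ± 0.26 (SE, adjusted p = 0.000243) in Holoclone and 1.63 ± 0.26 (adjusted p = 0.000295) in Paraclone cells. Both comparisons use the same parental libraries. Panc89 Holo- and Paraclone cells differed by −0.02, with a 95% interval from −0.56 to 0.52.

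In Panc1 the *HMGA2* levels were 5.89, 5.88 and 5.70 in the parental libraries, 6.48, 6.50 and 6.69 in the Holoclone libraries and 6.50, 6.05 and 5.85 in the Paraclone libraries. Holoclone cells lay above parental cells without overlap, but the log2 fold change of 0.73 ± 0.26 did not pass the threshold (adjusted p = 0.0835), except in a fit of those 2 groups alone (adjusted p = 0.0133). Paraclone cells overlapped with both other variants. Between the lines, *HMGA2* was higher in Panc89 than in Panc1 Paraclone cells by 0.86 (adjusted p = 0.00857), with overlapping libraries; without Panc89 Paraclone replicate 1 the value was 0.54 (adjusted p = 0.0549), and a fit of these groups alone gave an adjusted p of 0.0665. The parental cells of the lines differed by −0.46 (adjusted p = 0.126, but 0.008 in a fit of these groups alone), and the Holoclone cells by 0.42 (adjusted p = 0.164, but 0.0497 after median-of-ratios scaling). The antisense gene *HMGA2-AS1* overlaps *HMGA2* on the other strand and stayed at or below 0.55 on the log2(TPM + 1) scale. *HMGA1* made up 90.2% to 96.5% of the summed TPM of both HMGA genes in the group means, and the share of *HMGA2* was highest in Panc1 Holoclone cells at 9.79% ± 2.53 (SD, n = 3).

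*IGF2BP1* (chromosome 17, 48997385 to 49056145), which binds and stabilizes growth-related mRNAs, differed most between the Panc1 clones. The Panc1 Holoclone libraries were at 5.12, 5.72 and 5.60, the parental Panc1 libraries at 4.76, 4.91 and 4.89, and the Panc1 Paraclone libraries at 4.42, 3.69 and 3.47. The 3 variants formed separate levels with no overlap. The log2 fold change of Panc1 Holo- over Paraclone cells was 1.62 ± 0.20 (SE, adjusted p = 1.57e-05), and Paraclone cells were below parental cells (−0.99, adjusted p = 0.00194). Holoclone cells were 0.63 above parental cells, a difference that did not pass the threshold (adjusted p = 0.0591) except without Panc1 Holoclone replicate 1 (0.81, adjusted p = 0.0258).

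In Panc89, *IGF2BP1* was at 4.73, 4.40 and 4.55 in Holoclone, 4.19, 4.35 and 4.14 in Paraclone and 4.40, 4.21 and 4.41 in parental libraries. The log2 fold change of Panc89 Holo- over Paraclone cells was 0.34, with a 95% interval from −0.10 to 0.77 (adjusted p = 0.219). This change was smaller than that in Panc1 by 1.29 ± 0.29 (a difference of −1.29 on the log2 scale, adjusted p = 0.00256). Between the lines, Holoclone cells differed by −0.92 (adjusted p = 0.000855) and parental cells by −0.51 (adjusted p = 0.0374), and the latter call was lost after upper quartile scaling (−0.35, adjusted p = 0.098), after median-of-ratios scaling (−0.28, adjusted p = 0.222), with no filter on low values (adjusted p = 0.0622) and when any 1 of the 6 parental libraries was left out (adjusted p up to 0.112). The Paraclone cells of the lines differed by 0.36 (adjusted p = 0.134); without Panc1 Paraclone replicate 1, which was the highest of its group, the value was 0.64 (adjusted p = 0.00384).

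*IGF2BP2* (chromosome 3, 185643130 to 185825042, minus strand), the family member that adult tissues retain best, was the most abundant IGF2BP gene in all groups but Panc1 Paraclone cells. The parental Panc1 libraries were at 6.85, 6.82 and 6.75, the Panc1 Holoclone libraries at 6.91, 6.99 and 6.92 and the Panc1 Paraclone libraries at 6.36, 6.41 and 6.37. The parental Panc89 libraries were at 6.37, 6.56 and 6.32, the Panc89 Holoclone libraries at 7.15, 7.36 and 7.34 and the Panc89 Paraclone libraries at 7.41, 6.66 and 7.08. In Panc89, both clones lay above the parental cells without overlap, by 0.87 ± 0.14 (SE, adjusted p = 0.000295) for Holoclone and 0.63 ± 0.14 (adjusted p = 0.00455) for Paraclone cells, the latter not called in a fit of the 2 groups alone (adjusted p = 0.0982). Panc89 Holo- and Paraclone cells differed by 0.24 (adjusted p = 0.215), and by 0.42 (adjusted p = 0.0186) without Panc89 Paraclone replicate 1, the highest of its group. The Holo- against Paraclone change in Panc89 minus that in Panc1 was −0.33 (adjusted p = 0.223), and −0.52 (adjusted p = 0.0121) without Panc89 Paraclone replicate 2, the lowest of its group.

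In Panc1, *IGF2BP2* was 0.56 higher in Holo- than in Paraclone cells (adjusted p = 0.00505), but this was not called after upper quartile scaling (0.32, adjusted p = 0.174) or median-of-ratios scaling (0.28, adjusted p = 0.267). Panc1 Paraclone cells were also 0.43 below parental cells (log2 fold change −0.43, adjusted p = 0.0324), a call lost after both scalings (adjusted p = 0.352 and 0.533) and when any 1 of the 6 libraries was left out (adjusted p from 0.056 to 0.0941). Between the lines, parental Panc89 cells were lower (−0.39, adjusted p = 0.0236), a call lost after upper quartile scaling (−0.22, adjusted p = 0.253), after median-of-ratios scaling (−0.15, adjusted p = 0.484) and without parental Panc1 replicate 1 or 2 or parental Panc89 replicate 1 or 3 (adjusted p up to 0.082). Panc89 Paraclone cells were higher than Panc1 Paraclone cells by 0.67 (adjusted p = 0.000643). The Holoclone cells differed by 0.34 (adjusted p = 0.0416), a call lost when any of the 3 Panc1 Holoclone replicates or Panc89 Holoclone replicate 2 or 3 was left out (adjusted p up to 0.116), with no filter on low values (0.0594) and with no trend (0.0519).

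The long non-coding RNA *IGF2BP2-AS1* (chromosome 3, 185712528 to 185729787, plus strand) lies within *IGF2BP2* on the other strand. It was at or below 0.04 on the log2(TPM + 1) scale in parental and Holoclone Panc1 libraries and at 0.61 to 1.51 in Panc1 Paraclone libraries. In Panc89 it was at 0.48 to 1.57 in parental, 3.36 to 3.92 in Holoclone and 2.75 to 3.85 in Paraclone libraries. The library kit marks strand, but the strand setting of the quantification is not given in the sources used here, so reads of the pair may not be fully separated, and their part in the *IGF2BP2* differences was not tested.

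*IGF2BP3* (chromosome 7, 23310209 to 23470491, minus strand), known mainly from embryos and carcinomas, moved in opposite directions between the clones of the lines. The Panc1 Paraclone libraries were at 6.80, 6.64 and 6.61, above the Panc1 Holoclone libraries at 6.10, 6.33 and 6.01 and the parental Panc1 libraries at 6.29, 6.13 and 6.16. The Panc89 Holoclone libraries were at 6.12, 6.19 and 6.39, above the Panc89 Paraclone libraries at 5.26, 5.30 and 5.17 and the parental Panc89 libraries at 5.45, 5.32 and 5.16. In each line 1 clone stood apart, and the other clone overlapped with the parental cells.

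For *IGF2BP3*, Panc1 Holoclone cells were lower than Paraclone cells by a log2 difference of −0.54 ± 0.11 (SE, adjusted p = 0.00131), and Panc89 Holoclone cells were higher than Paraclone cells by 0.99 ± 0.11 (adjusted p = 5.81e-06). The difference of both changes was 1.53 ± 0.16 (adjusted p = 2.52e-06). Against parental cells, Panc1 Paraclone cells were 0.49 higher (adjusted p = 0.00376) and Panc89 Holoclone cells 0.92 higher (adjusted p = 1.87e-05). Parental Panc89 cells were lower than parental Panc1 cells (−0.88, adjusted p = 3.92e-06) and Panc89 Paraclone cells lower than Panc1 Paraclone cells (−1.44, adjusted p = 1.54e-08). The Holoclone cells of the lines differed by 0.08, with a 95% interval from −0.15 to 0.32.

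The shares of the 3 IGF2BP genes in their summed TPM are given here by group, as a description. In Panc1 Paraclone cells, *IGF2BP3* made up 51.5% ± 0.703 (SD, n = 3) of the summed TPM of the 3 genes and *IGF2BP1* 7.03% ± 2.27. In Panc1 Holoclone cells the shares were 29.7% ± 1.92 and 18.7% ± 2.93. *IGF2BP2* held 70.4% ± 6.27 in Panc89 Paraclone cells, where *IGF2BP3* was at its lowest share of 20.0% ± 3.90. The summed level was lowest in parental Panc89 cells at 143 ± 8.07 TPM and highest in Panc89 Holoclone cells at 252 ± 16.3 TPM, and was 198 ± 12.2 TPM in Panc1 Paraclone against 236 TPM in Panc1 Holoclone cells. These shares rest on the same values as the tests above and were not tested separately.

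**Figure D2:**
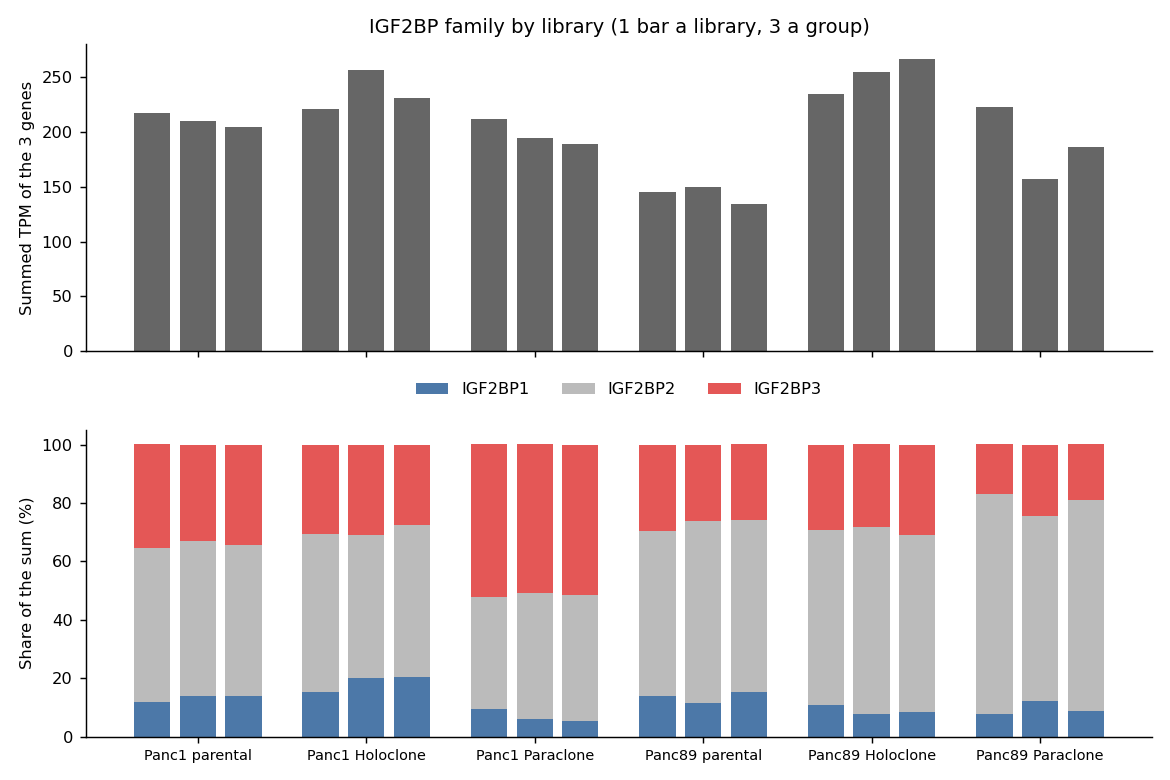
Summed TPM of IGF2BP1, IGF2BP2 and IGF2BP3 (top, y axis) and the percentage of that sum held by each gene (bottom), 1 bar per library and 3 bars per group on the x axis. The IGF2BP3 section is largest in the 3 Panc1 Paraclone libraries, at 50.8% to 52.2%, and smallest in Panc89 Paraclone libraries, at 16.8% to 24.3%.

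Across the comparisons, the counts of the 7 genes past the threshold are read against the share of all genes tested that passed. For Holoclone against Paraclone cells, *IGF2BP1*, *IGF2BP2*, *IGF2BP3* and *LIN28B* passed in Panc1, where 37.3% of all genes did, and *HMGA1* and *IGF2BP3* passed in Panc89, where 35.7% did. The difference of these changes between the lines passed for *IGF2BP1* and *IGF2BP3*, with 35.1% of all genes. It also passed for *LIN28B* (−0.66, adjusted p = 0.0155), but this gene was near 0 in all Panc89 libraries, so that the value restates its change in Panc1, and the call was lost with a pseudocount of 0.1 (adjusted p = 0.103) and after median-of-ratios scaling (adjusted p = 0.0656). Over all genes, the median change between the Panc1 clones was 0.19, and upper quartile or median-of-ratios scaling moved it to 0.005 or −0.002 and the share of higher calls from 73.3% to 51.1% or 46.5%. Relative to that median, *IGF2BP1* and *LIN28B* remained higher and *IGF2BP3* lower in Holoclone cells under both scalings. In Panc89 the median was 0.09 and the share of higher calls moved from 62.8% to 52.4% or 49.0%. The epithelial marker list summed to 217 to 315 TPM in Panc1 Holoclone and 1100 to 1390 TPM in Panc1 Paraclone libraries, and the mesenchymal list to 2050 to 2890 and 3680 to 5140 TPM. *KRT19* (183 to 285 against 1090 to 1390 TPM) and *VIM* (2020 to 2850 against 3590 to 5040 TPM) carried these sums. *CDH1* (0.671 to 1.49 against 2.1 to 3.51 TPM) and *SPARC* (1.71 to 2.77 against 60 to 78.5 TPM) were also lower in the Holoclone libraries. Other markers went the opposite way, with *EPCAM* at 27.2 to 31.5 TPM in Holoclone and 1.28 to 2.30 TPM in Paraclone libraries and *CDH2* at 11.5 to 16.3 and 1.09 to 1.82 TPM, and *ESRP1*, *ZEB1* and *ZEB2* were also higher in the Holoclone libraries. *GRHL2* was at most 0.149 TPM in both. The part of these differences in the results was not tested.

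**Figure D3:**
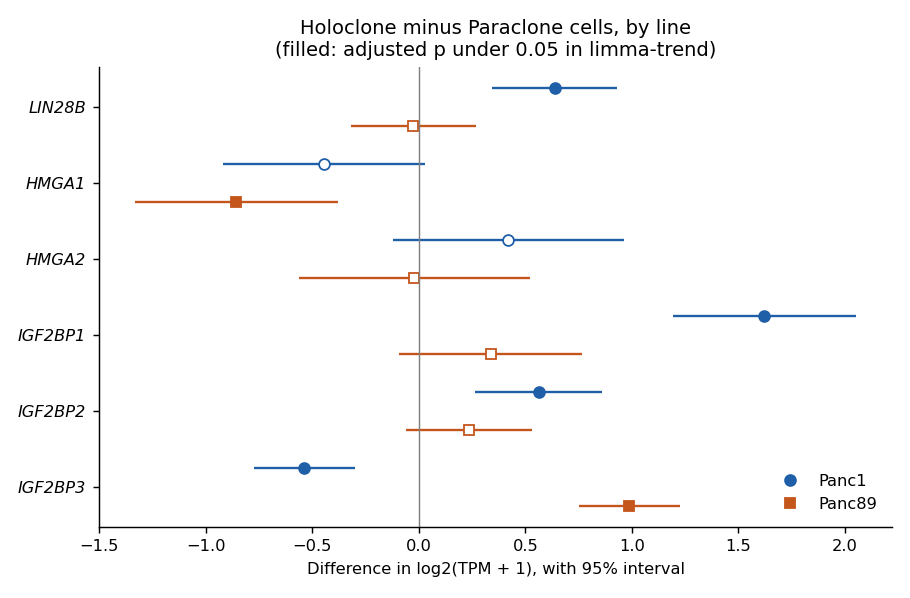
Difference in log2(TPM + 1) between Holoclone and Paraclone cells (x axis) with its 95% interval for the 6 genes tested (y axis), Panc1 as blue circles and Panc89 as orange squares, filled where the adjusted p was under 0.05. IGF2BP3 lies at −0.54 in Panc1 and 0.99 in Panc89, and IGF2BP1 at 1.62 and 0.34.

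Against their parental cells, none of the 7 genes passed in Panc1 Holoclone cells in limma-trend, where 10.9% of all genes did; *HMGA2* and *IGF2BP1* had an unadjusted p under 0.05. In Panc1 Paraclone cells *IGF2BP1*, *IGF2BP2*, *IGF2BP3* and *LIN28B* passed, with 28.6% of all genes. There the share of higher calls among all genes was 25.6%, and 47.6% or 55.4% after upper quartile or median-of-ratios scaling. In Panc89 Holoclone cells *HMGA2*, *IGF2BP2* and *IGF2BP3* passed, with 24.7% of all genes, and the share of higher calls moved from 65.2% to 51.2% or 51.1% after the scalings. In Panc89 Paraclone cells *HMGA1*, *HMGA2* and *IGF2BP2* passed, with 19.4% of all genes. The endothelial list of 4 genes summed to 55.2 to 69.1 TPM in parental Panc89, 1.01 to 2.17 TPM in Panc89 Holoclone and 2.95 to 8.90 TPM in Panc89 Paraclone libraries. It was led by *PECAM1* at 53.2 to 64.7 TPM in parental Panc89 cells, while *KDR* was at most 0.00404 TPM and *VWF* at most 0.136 TPM there. *CDH5* was at 1.99 to 5.07 TPM in parental Panc89, 0.278 to 0.551 TPM in Panc89 Holoclone and 0.969 to 1.91 TPM in Panc89 Paraclone libraries. The blood list reached at most 5.86 TPM and the fibroblast list 27.3 TPM in any library. The part of these transcripts in the results was not tested.

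**Figure D4:**
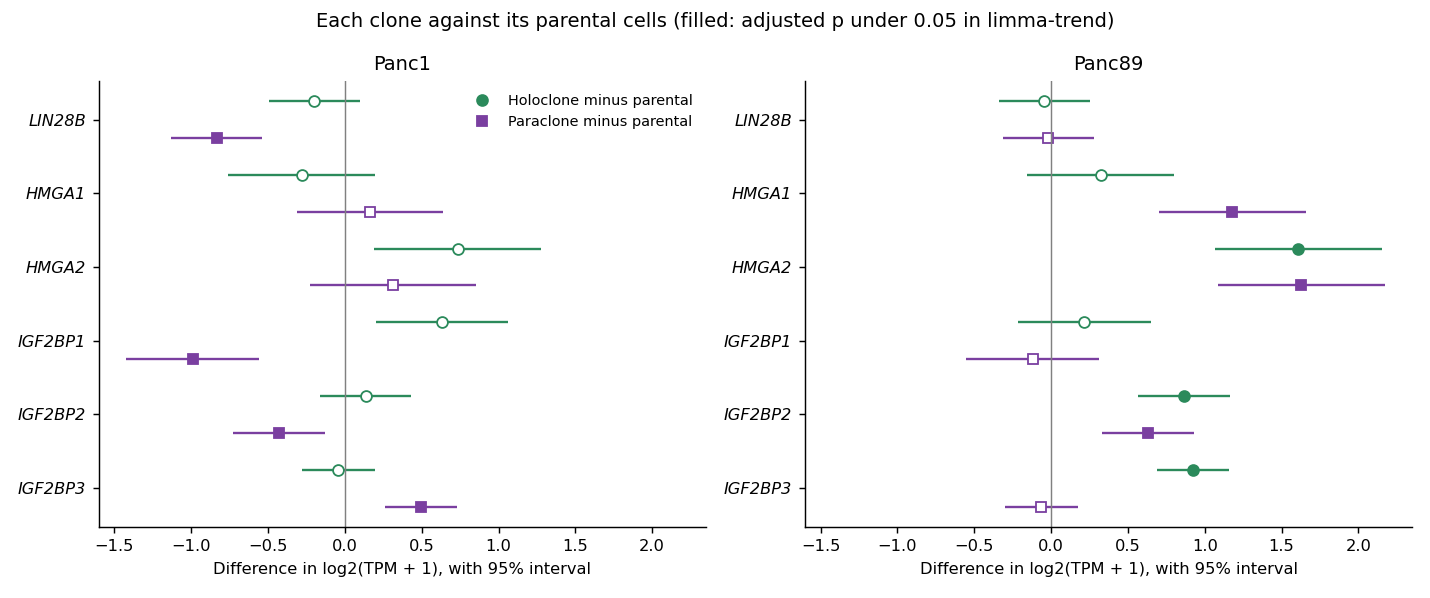
Difference in log2(TPM + 1) of Holoclone (green circles) and Paraclone cells (purple squares) from the parental cells (x axis) with 95% intervals for the 6 genes tested (y axis), Panc1 left and Panc89 right, filled where the adjusted p was under 0.05. HMGA2 lies at 1.61 and 1.63 in the Panc89 clones, and IGF2BP1 at −0.99 in Panc1 Paraclone cells.

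Between the lines, and leaving *LIN28B* aside, the 3 IGF2BP genes passed in parental cells, with 66.0% of all genes, all lower in Panc89. The median of all genes was −0.18, and upper quartile or median-of-ratios scaling moved it to −0.04 or 0.02 and the share of higher calls from 41.6% to 48.4% or 51.9%. In Holoclone cells *HMGA1*, *IGF2BP1* and *IGF2BP2* passed, with 65.8% of all genes. In Paraclone cells *HMGA1*, *HMGA2*, *IGF2BP2* and *IGF2BP3* passed, with 60.7% of all genes. The lines also differ in origin, so that line and source of the tumor cannot be told apart.

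The 6 genes tested differed in their patterns over the 18 libraries. *HMGA2* and *IGF2BP2* had the highest correlation of any pair of these genes, Pearson's r of 0.770 over all libraries and 0.758 once the mean of each line was taken off. With the line means taken off, *LIN28B* and *IGF2BP1* correlated at 0.755 and *LIN28B* and *IGF2BP3* at −0.427. The libraries of a group share their source, so these values describe the 6 groups more than independent samples. *LIN28B* was at or below 0.16 on the log2(TPM + 1) scale in all Panc89 libraries. Its correlations with line means taken off therefore rest mostly on the Panc1 libraries. The genes most like *LIN28B* over all libraries were *BVES*, *SDK1* and *RIPOR3* (r = 0.989 to 0.990), and 1694 genes exceeded an r of 0.9. With line means taken off, the most similar genes were *PDX1*, *GSK3A* and *TMEM11* for *LIN28B* (r = 0.925 to 0.933), *PKP4*, *TMSB15B* and *MEPCE* for *IGF2BP1* (0.955 to 0.961), *NAV2*, *SHH* and *MEG3* for *IGF2BP3* (0.931 to 0.954), *NAGS* and *DESI2* for *IGF2BP2* (0.952 and 0.926), *SH3BGRL3*, *CD68* and *LINC01358* for *HMGA1* (0.909 to 0.925) and *ETS1*, *ARNTL2* and *SEPTIN9* for *HMGA2* (0.903 to 0.905). Over all libraries *PKP4*, *MEPCE* and *MBD4* were most like *IGF2BP1* (0.937 to 0.964), *SHH*, *CNTNAP3C* and *FAR2* most like *IGF2BP3* (0.956 to 0.963), *TRAF6*, *MPHOSPH6* and *MIB1* most like *IGF2BP2* (0.877 to 0.902), *C19orf33*, *PLEKHG5* and *PRKG2-AS1* most like *HMGA1* (0.906 to 0.932), and *ACER3*, *RIPOR1* and *NOTCH2NLA* most like *HMGA2* (0.802 to 0.860).

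Around LIN28, the list of LIN28 effectors and microRNA machinery held 20 genes, of which 19 were tested. In Panc1 Holo- against Paraclone cells, 11 passed as higher and 0 as lower, beside 27.4% of all genes higher and 9.97% lower, with a median log2 fold change of 0.46 against 0.19 for all genes. With upper quartile and with median-of-ratios scaling, 8 were higher and 0 lower. The 11 higher without scaling included *TNRC6C* (1.70) and *AGO4* (1.24), parts of the silencing complex, and *TRIM25* (1.16), a LIN28 cofactor. Also among the 11 were *DICER1* (0.75), the enzyme that cuts the precursor, and *TUT4* (0.46), a uridylyltransferase that LIN28 recruits. In Panc89 the list split into 4 higher and 3 lower, beside 22.4% of all genes higher and 13.3% lower, with a median of 0.22 against 0.09. The shares of all genes in these 2 comparisons come from the fit without scaling and apply to the unscaled counts of the lists that follow as well. Counts after scaling are given without the share of all genes under that scaling and cannot be read against it. By the test of the difference, the change was lower in Panc89 than in Panc1 for 6 of the 19 genes and higher for 0, beside 20.4% of all genes lower and 14.8% higher. After upper quartile scaling 4 were lower, and after median-of-ratios scaling 5. *TRIM71*, a LIN28 partner gene that is also a let-7 target, was below 0.1 on the log2(TPM + 1) scale in all group means.

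Of the 9 let-7 host transcripts, 6 were tested. These are the long RNAs and genes from which let-7 precursors are cut, and their level is not that of mature let-7, which an mRNA library does not measure. *MIRLET7BHG*, host of let-7a-3 and let-7b, was 1.56 higher in Panc1 Holo- than in Paraclone cells (adjusted p = 0.00401) and 2.42 lower in Panc89 (log2 fold change −2.42, adjusted p = 0.000125). The difference of both changes was −3.98 ± 0.53 (SE, adjusted p = 3.41e-05). *MIR100HG*, host of let-7a-2, was lower in Holoclone cells of both lines, by −1.42 (adjusted p = 0.00181) in Panc1 and −2.78 (adjusted p = 4.58e-06) in Panc89. *WDR82*, host of let-7g, was higher in Holoclone cells of both lines (0.64 and 0.47).

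Of the 24 let-7 targets outside the 7 genes, 22 were tested. In Panc1 Holo- against Paraclone cells 12 were higher and 1 lower (median 0.66 against 0.19 for all genes), and with upper quartile scaling 10 and 2, with median-of-ratios scaling 9 and 2. Among the 12 higher without scaling were *CCND2* (1.58), a cell cycle cyclin, and *ARID3B* (1.41), a DNA-binding protein. *IRS2* (1.31) and *IGF1R* (1.21) of insulin-like growth factor signalling were also among the 12. *THBS1*, an extracellular matrix protein, was the 1 that was lower (−2.54). In Panc89, 6 were higher and 4 lower (median 0.15 against 0.09), and after either scaling 4 and 4. *CCND2* rose in Holoclone cells here as well, by 4.70 (adjusted p = 4.08e-10), from 0.34 ± 0.11 (SD, n = 3) in Paraclone to 5.04 ± 0.33 in Holoclone cells, and *HRAS* by 1.44, whereas *ARID3B* was lower (−1.08). The change of *ARID3B* thus had opposite signs in the lines, each past the threshold.

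Around the IGF2BP proteins, the 21 partners and m6A genes included 9 higher and 0 lower in Panc1 Holo- against Paraclone cells (median 0.27 against 0.19), led by *WTAP* (1.14), a subunit of the m6A writer complex. After upper quartile scaling 3 were higher and 2 lower, and after median-of-ratios scaling 2 and 2. In Panc89, 8 were higher and 0 lower (median 0.29 against 0.09), and 5 higher and 1 lower after either scaling. Of the 13 IGF2BP client transcripts, 11 were tested. In Panc1 3 were higher and 4 lower, after upper quartile scaling 1 and 4, and after median-of-ratios scaling 0 and 5. *IGF2*, the growth factor for whose mRNA the family is named, was at 6.81 ± 0.31 (SD, n = 3) in Panc1 Paraclone, 3.42 ± 0.11 in parental Panc1 and 2.17 ± 0.09 in Panc1 Holoclone cells, a Holo- against Paraclone change of −4.64 (adjusted p = 2.5e-12). It overlaps a readthrough gene with *INS*, so its reads could be split. *CD44*, a cell surface receptor, was also lower in Panc1 Holoclone cells (−1.68). In Panc89 4 clients were higher and 0 lower, but 3 and 3 after either scaling. The 2 largest were the long non-coding RNA *H19*, at 3.97 ± 0.57 in Paraclone, 11.10 ± 0.15 in Holoclone and 12.07 ± 0.26 in parental cells (Holo- against Paraclone 7.13, adjusted p = 1.6e-11), and *GLI1*, a hedgehog pathway transcription factor (3.05).

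Among 10 other high mobility group genes, none passed between Holo- and Paraclone cells in limma-trend in either line, with an unadjusted p under 0.05 for 2 in Panc1 and 3 in Panc89. Between parental cells 2 were higher and 3 lower in Panc89, with *HMGB3* at −3.44 (adjusted p = 1.1e-06). Of 14 pluripotency and other oncofetal genes 5 were tested. *MSI1*, an RNA-binding protein of neural stem cells, was 2.80 higher in Panc1 Holo- than in Paraclone cells (adjusted p = 6.44e-11). *SOX2*, a pluripotency factor, was 4.35 higher in Panc89 Holo- than in Paraclone cells (adjusted p = 1.02e-07), and *PEG10*, a retrotransposon-derived imprinted gene, 2.99 higher (adjusted p = 0.000152). Of 10 proliferation genes, none passed between Holo- and Paraclone cells in limma-trend (unadjusted p under 0.05 for 1 in each line). Their medians were 0.68 in Panc1 and 0.60 in Panc89, against 0.19 and 0.09 for all genes. The standard errors of these genes were 0.456 to 0.754, so the lack of calls does not show equal levels.

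**Figure D5:**
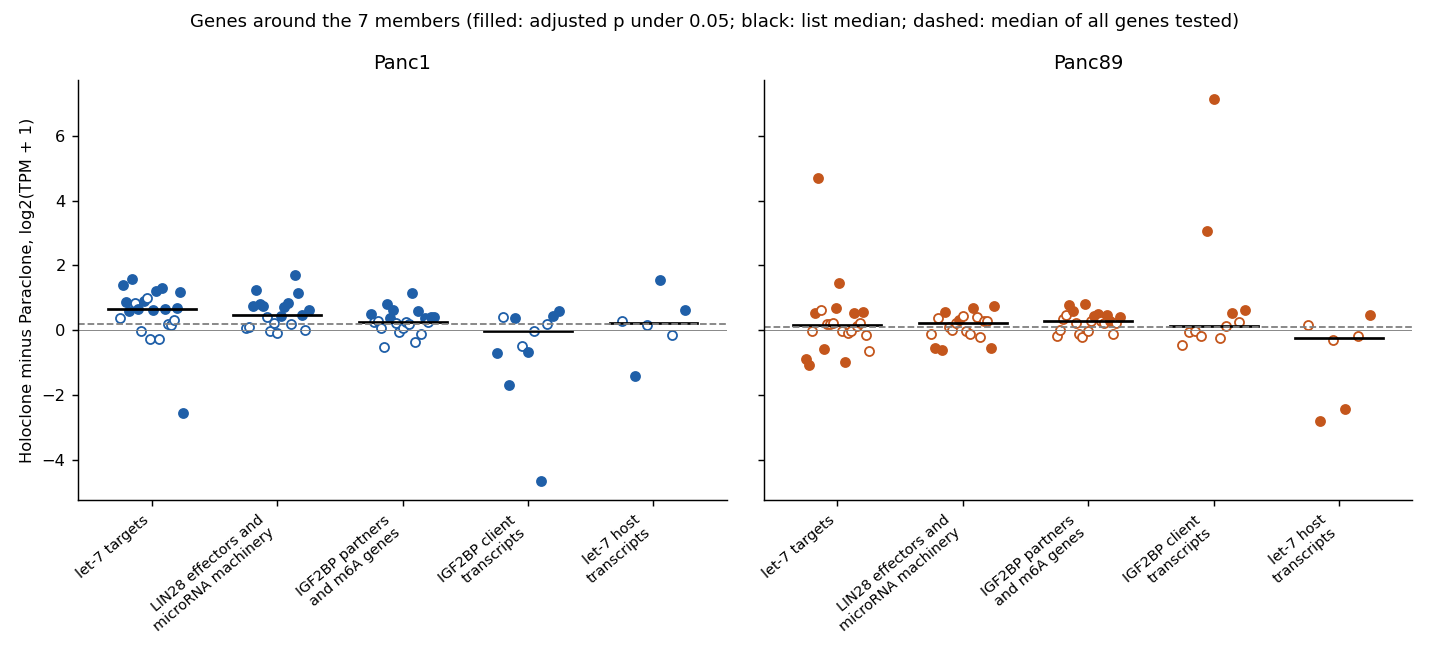
Difference in log2(TPM + 1) between Holoclone and Paraclone cells (y axis) for each tested gene of 5 lists around the 7 genes (x axis), Panc1 left and Panc89 right, filled where the adjusted p was under 0.05, with list medians as black bars and the median of all genes tested dashed. The let-7 targets have a median of 0.66 in Panc1 and 0.15 in Panc89; IGF2 lies at −4.64 in Panc1 and H19 at 7.13 in Panc89.

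Between the parental lines, 27.5% of all genes were higher and 38.5% lower in Panc89 in the fit without scaling, and the same lists held calls in both directions. The counts after scaling are again given without such shares. Of the LIN28 effectors and microRNA machinery 4 were higher and 7 lower in Panc89, with *AGO3* (−1.68), *AGO4* (−1.53), *TNRC6A* (−1.43) and *AGO1* (−1.43) among the lower ones, 6 and 6 after upper quartile scaling, and 7 and 6 after median-of-ratios scaling. The let-7 targets split into 5 higher and 8 lower (8 and 8 after either scaling), with *MYC* at 2.44 (adjusted p = 8.27e-10), *IRS2* at 2.26, *CCND2* at 1.84 and *ARID3B* at −1.76. *MIR100HG* (−2.57) and *MIRLET7BHG* (−2.17) were lower in parental Panc89 cells. Of the IGF2BP clients 4 were higher and 6 lower, and of the partners and m6A genes 4 and 7, the latter 5 and 5 after upper quartile and 6 and 4 after median-of-ratios scaling. *SOX2* (4.77) and *SALL4* (2.67) were higher and *MSI1* (−1.34) lower in parental Panc89 cells. These values are a description, because *SOX2* reached the test through Panc89 alone and *MSI1* through Panc1 alone. On the log2(TPM + 1) scale, *SOX2* averaged 0.007 and *SALL4* 0.607 in parental Panc1 cells, and *MSI1* 0.274 in parental Panc89 cells. Of the proliferation genes *BUB1* alone passed (−1.72, adjusted p = 0.0265), which was lost in some alternatives (adjusted p up to 0.097).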

How the data were processed

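RNA of 3 passages of each cell variant was sequenced by the authors with a stranded mRNA kit, quantified with kallisto 0.46.1 against Ensembl GRCh38 release 106 and summarised to genes by tximport (scaled TPM). The deposited table holds log2(TPM + 1) per gene symbol and library, and raised back from log2 they sum to 985339 to 988066 TPM per library. Replicates and groups were taken from the labels, and no column was left without a sample. TPM keep no depth, so counting error is unknown.

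Groups were compared with limma 3.58.1 in R 4.3.3 (trend, 1 mean per group, all 18 libraries, 12 residual degrees of freedom, two-sided, Benjamini-Hochberg). P-values measure the spread between passages. limma was used instead of the authors' DESeq2 because the table holds no counts. On simulated data for the Panc1 Holo- against Paraclone comparison (200 of 16093 genes changed), 65.3% of genes changed by 1 and 89.9% of those changed by 2 (log2) were recovered. In the real comparison 37.3% of all genes passed, so these rates do not give the sensitivity of the real test.

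The members and lists were chosen with earlier results of these data known. Named are all 7 genes, up to 4 genes of a list per comparison past the threshold with an absolute log2 fold change of at least 1 and no overlap of replicates, the 3 genes most similar to each member by Pearson correlation and features at the members' loci. *DICER1*, *TUT4*, *TRIM71*, *WDR82* and *IGF1R* are named outside this rule, chosen after their values were seen. 1 of the genes most similar to *IGF2BP2* is not reported here. The lists were LIN28 effectors and microRNA machinery, let-7 host transcripts, let-7 targets, IGF2BP partners and m6A genes, IGF2BP client transcripts, other high mobility group genes, pluripotency and other oncofetal genes, and proliferation genes.

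Replicate numbers did not pair libraries: same-numbered libraries of a line correlated at −0.318 to 0.190 in their deviations from group means (mean −0.0418, 18 pairs). Alternatives were a pseudocount of 0.1, other filters, 2 scalings, no trend, the compared groups alone, a replicate block, a fold change minimum and leaving out each library.

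Positions and 3′ UTRs come from GENCODE 44 on GRCh38, microRNA sequences from RefSeq (GRCh38.p14). Proteins were not analysed here.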

Additional observations from a re-analysis of the deposited data

Results flagged for a closer look

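For *IGF2BP3* and *IGF2BP1* the Holo- against Paraclone change differed between the lines by the test of the difference itself in limma-trend. For *IGF2BP3* the change in Panc89 minus that in Panc1 was 1.53 ± 0.16 (SE, adjusted p = 2.52e-06), with −0.54 in Panc1 and 0.99 in Panc89. For *IGF2BP1* it was −1.29 ± 0.29 (adjusted p = 0.00256), with 1.62 in Panc1 and 0.34 in Panc89. *LIN28B* was flagged as well (−0.66 ± 0.20, adjusted p = 0.0155), with 0.64 in Panc1 and −0.03 in Panc89. This gene was near 0 in all Panc89 libraries, so the value restates the Panc1 change and is not counted as a difference between the lines. It was not called with a pseudocount of 0.1 (adjusted p = 0.103) or after median-of-ratios scaling (adjusted p = 0.0656). Groups of 3 were not examined for single outlying libraries.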

How the results depend on the processing

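Of 60 differences of the 6 tested genes over 10 comparisons, 32 passed the threshold, 22 of them under every alternative but the fold change minimum, and no called difference reversed. Both counts include the *LIN28B* differences between the lines in parental, Holoclone and Paraclone cells, which are a description only. The 32 also include the *LIN28B* difference of changes. Of all genes tested, 10.9% to 66.0% passed, depending on the comparison. The *LIN28B* difference between the lines' Holo- against Paraclone changes was −1.03 (adjusted p = 0.103) with a pseudocount of 0.1 and −0.47 (adjusted p = 0.0656) after median-of-ratios scaling. *LIN28B* had no value under the 5 TPM filter. The causes were not tested.

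With the fold change minimum of 1 fewer genes can pass by construction, and the number of all genes called was 6020 between parental lines, 1860 and 2124 between Holo- and Paraclone cells of Panc1 and Panc89, 516 and 1279 in Panc1 Holo- and Paraclone cells and 1369 and 1184 in Panc89 Holo- and Paraclone cells against parental cells, 5996 between Holoclone cells, 5271 between Paraclone cells and 3292 for the difference of changes. Members called were then 1 between parental lines, 1 and 0 between clones of Panc1 and Panc89, 0 in Panc1 Paraclone and 1 in Panc89 Holoclone cells against parental cells, 1 between Holoclone cells and 3 between Paraclone cells. The 1 between parental lines and the 1 between Holoclone cells were *LIN28B*, which was also among the 3 between Paraclone cells. Its differences between the lines are a description only. In Panc89 Paraclone against parental cells, *HMGA1* (1.18) and *HMGA2* (1.63) stayed called under this minimum and *IGF2BP2* (0.63) did not. For the difference of changes, *IGF2BP1* (−1.29) and *IGF2BP3* (1.53) stayed called and *LIN28B* (−0.66) did not. In Panc1 Holoclone against parental cells none was called, with or without the minimum.

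Between parental lines, upper quartile scaling, median-of-ratios scaling and the replicate block each left 2 members, *IGF2BP3* and *LIN28B*. The latter entered the test through Panc1 alone, and all counts of members between the lines given here include it. Fits of the compared groups alone gave 1 member and 3377 genes for the Panc89 clones and 1 member for Panc1 Holoclone against parental cells. With 1 library left out, members called ranged from 2 to 3 between parental lines, 0 to 1 for Panc1 Holoclone against parental cells and 2 to 4 between Holoclone cells, and all genes called for Panc1 Holoclone against parental cells from 1061 (without Panc1 Holoclone replicate 3) to 1571.

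With the replicate number as a block, the samples share only a number, and the calls lost were *IGF2BP1* (adjusted p = 0.0744) and *IGF2BP2* (0.0524) between parental lines and *IGF2BP2* for Panc1 Paraclone against parental cells (0.0744) and between Holoclone cells (0.0807). It changed no other call of the 7 genes.

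The differences that reversed were all uncalled, each with 1 library left out. *HMGA1* between parental lines ranged from −0.079 to 0.20, *HMGA2* and *LIN28B* between the Panc89 clones from −0.27 to 0.30 and from −0.062 to 0.011, *IGF2BP3* in Panc1 Holoclone against parental cells from −0.14 to 0.025, and *LIN28B* and *IGF2BP3* in Panc89 Paraclone against parental cells from −0.059 to 0.017 and from −0.14 to 0.005.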
